A study of Mus musculus with 4 samples.

Results

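The genes described here are 10 components of the mammalian circadian clock, *Arntl*, *Clock*, *Per1*, *Per2*, *Per3*, *Cry1*, *Nr1d1*, *Nr1d2*, *Dbp* and *Tef*. They were picked out by gene symbol, and the list was drawn up with earlier results of these data known. All 10 were found among the 24346 symbols of the expression files, and all 10 were above the filter on low values. Their mRNA was measured by RNA sequencing in dorsal skin of C57BL/6 mice. The male mice were 8 weeks old when the diet began, and both groups received a NASH diet rich in fat, cholesterol, sucrose and bile salt for 3 weeks, followed by imiquimod (IMQ) cream on the skin for 1 day. IMQ is a ligand of Toll-like receptor 7 that causes a psoriasis-like dermatitis. The Cont-IMQ group (2 libraries, called Cont1 and Cont2 after their replicate numbers) was fed this diet alone, and the 7KC-IMQ group (2 libraries, 7KC1 and 7KC2) was fed the same diet with 7-ketocholesterol (7KC), an oxidized derivative of cholesterol. IMQ was applied in all 4 libraries, so skin with vehicle cream is not part of the comparison. Nothing in the labels says whether the libraries of a group came from separate mice, and p-values then measure only the spread between these libraries. The mice were kept under a light/dark cycle, and the hour at which each skin was taken is not given in the sources used here.

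The circadian clock is a feedback loop of transcription that runs in nearly every cell, including keratinocytes, fibroblasts and hair follicle cells. ARNTL (also called BMAL1) and CLOCK bind as a pair to E-box sequences and activate the *Per* and *Cry* genes, whose proteins return to the nucleus and repress ARNTL and CLOCK. The same pair activates *Nr1d1* and *Nr1d2*, which repress *Arntl* through ROR elements, and *Dbp*, *Tef* and *Hlf*, which drive further genes through D-boxes. As a result *Arntl* peaks at about the opposite time of day to *Nr1d1*, *Dbp*, *Tef* and *Per3*, and *Cry1* peaks later than the other E-box genes. The skin clock is known for timing the division of epidermal cells and the hair cycle.

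Values are FPKM, in which the fragments of a gene are divided by its exon length and by the size of the library, so that levels can be compared between genes. Differences are on the log2(FPKM + 1) scale, as 7KC-IMQ minus Cont-IMQ, a scale that compresses differences at low FPKM. They were tested by limma across the 15896 genes whose FPKM averaged 0.1 or more, with Benjamini-Hochberg adjustment over all of them and a threshold of 0.05. Depth was estimated from the low values at 14990000 to 16270000 reads per library. Markers of keratinocytes, fibroblasts, adipocytes, sebaceous gland and skeletal muscle were above 0 in every library. The Cont-IMQ libraries stood apart in their hair follicle markers. The summed FPKM of 9 growing hair follicle markers was 104.9 in Cont1, 1455 in Cont2, 403.5 in 7KC1 and 356.4 in 7KC2. All 9 of these markers were lowest in Cont1 and highest in Cont2.

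Of the 10 genes, 9 have a promoter in the RefSeq table used (14 promoters from 250 bases before to 50 bases after a start, assembly GRCm38.p6), and *Per2* has none there. The promoters were searched on both strands for the E-box CACGTG, its variant CACGTT, the D-box TTATGTAA and the ROR element TAGGTCA. The 4 motifs do not overlap each other in these promoters. The E-box was present in promoters of *Per1*, *Cry1* and *Tef*, and in 7.15% of all 32851 promoters or 8.09% of all 27025 genes. Its variant was present in *Cry1* and *Nr1d1*, and in 4.68% of all promoters or 5.44% of genes. The D-box was present in *Per3*, at 2 places, and in 0.94% of all promoters or 1.11% of genes. The ROR element was present in *Arntl*, and in 2.61% of all promoters or 2.97% of genes. The stretches below show each kind of element next to its start, with motifs in capitals. Each runs 5′ to 3′ on the strand of its gene and, except for *Arntl*, ends at the base before the start. A motif that reads AACGTG is the variant on the opposite strand.
*Cry1*, chr10:85185055-85185153, minus strand: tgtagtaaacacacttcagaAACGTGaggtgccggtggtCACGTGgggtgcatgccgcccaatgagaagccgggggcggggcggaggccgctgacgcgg
*Per1*, chr11:69098763-69098948, plus strand: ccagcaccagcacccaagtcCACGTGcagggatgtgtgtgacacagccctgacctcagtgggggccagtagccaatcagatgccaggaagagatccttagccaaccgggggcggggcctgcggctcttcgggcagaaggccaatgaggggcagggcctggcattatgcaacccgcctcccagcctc
*Tef*, chr15:81802526-81802672, plus strand: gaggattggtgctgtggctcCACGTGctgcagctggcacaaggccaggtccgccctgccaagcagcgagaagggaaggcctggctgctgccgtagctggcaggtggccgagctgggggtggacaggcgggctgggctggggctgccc
*Nr1d1*, chr11:98775378-98775425, minus strand: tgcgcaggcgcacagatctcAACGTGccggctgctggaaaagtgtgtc
*Per3*, chr4:151044666-151044890, minus strand: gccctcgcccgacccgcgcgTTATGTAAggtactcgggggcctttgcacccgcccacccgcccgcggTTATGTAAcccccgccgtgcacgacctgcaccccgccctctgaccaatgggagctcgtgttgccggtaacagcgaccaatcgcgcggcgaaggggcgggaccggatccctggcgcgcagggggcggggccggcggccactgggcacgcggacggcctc
*Arntl*, chr7:113207530-113207559, plus strand, just after a start: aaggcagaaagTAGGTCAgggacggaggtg

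The activators *Arntl* and *Clock* differed least between libraries. *Arntl* (ENSMUSG00000055116.8, chromosome 7 from 113207465 to 113314126, GRCm38) had 16.8 FPKM in Cont1, 16.3 in Cont2, 15.4 in 7KC1 and 15.4 in 7KC2. The 7KC-IMQ libraries were both below the Cont-IMQ libraries by a small margin, and the log2 difference was -0.09 (SE 0.077, limma, adjusted p = 0.640). *Clock* (ENSMUSG00000029238.11, chromosome 5 from 76209868 to 76304792) had 8.32 FPKM in Cont1, 7.96 in Cont2, 7.69 in 7KC1 and 7.77 in 7KC2. Again the groups did not overlap and lay close together, with a log2 difference of -0.07 (SE 0.090, limma, adjusted p = 0.791). The levels of *Arntl* and *Clock* kept nearly 1 ratio in all libraries, with a log2 ratio of 1.01 and 1.04 in the Cont-IMQ libraries and 1.01 and 0.99 in the 7KC-IMQ libraries.

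Among the repressors, the 3 *Per* genes did not share a pattern. *Per1* (ENSMUSG00000020893.17, chromosome 11 from 69095217 to 69109960), which responds to glucocorticoids and other acute signals as well as to the clock, had 24.4 FPKM in Cont1, 29.6 in Cont2, 20.4 in 7KC1 and 25.7 in 7KC2. In both groups replicate 2 was the higher library, and the groups overlapped (log2 difference -0.22, SE 0.155, limma, adjusted p = 0.591). *Per2* (ENSMUSG00000055866.9, chromosome 1 from 91415982 to 91459324) had 2.02 FPKM in Cont1, 2.58 in Cont2, 2.12 in 7KC1 and 2.49 in 7KC2. Its group means were 2.30 ± 0.392 and 2.31 ± 0.267 FPKM (SD, n = 2), and the log2 difference was 0.01 (SE 0.141, limma, adjusted p = 0.994). *Per3* (ENSMUSG00000028957.12, chromosome 4 from 151003652 to 151044665) had 3.79 FPKM in Cont1 and 2.52 in Cont2, against 2.54 in 7KC1 and 2.44 in 7KC2. Only Cont1 was high in *Per3*, and the log2 difference of -0.23 (SE 0.179, limma, adjusted p = 0.617) was smaller than the gap of 0.45 between the Cont-IMQ libraries.

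*Cry1* (ENSMUSG00000020038.10, chromosome 10 from 85131700 to 85185064), the late repressor of the loop, had 5.93 FPKM in Cont1, 9.34 in Cont2, 7.63 in 7KC1 and 8.63 in 7KC2. The 7KC-IMQ libraries lay between the Cont-IMQ libraries, and here Cont1 was the lowest of the 4. The log2 difference was 0.11 (SE 0.216, limma, adjusted p = 0.865).

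The nuclear receptors *Nr1d1* and *Nr1d2* (REV-ERB alpha and beta), which repress *Arntl*, differed in how they were spread. *Nr1d1* (ENSMUSG00000020889.11, chromosome 11 from 98767932 to 98775333) had 34.1 FPKM in Cont1, 19.4 in Cont2, 26.1 in 7KC1 and 22.5 in 7KC2. The 7KC-IMQ libraries again lay between the Cont-IMQ libraries, which differed 1.76-fold, and the log2 difference between groups was -0.09 (SE 0.275, limma, adjusted p = 0.923). *Nr1d2* (ENSMUSG00000021775.11, chromosome 14 from 18204054 to 18239127) had 18.1 FPKM in Cont1, 16.0 in Cont2, 14.2 in 7KC1 and 14.5 in 7KC2. Both 7KC-IMQ libraries were below both Cont-IMQ libraries, and its adjusted p was the smallest of the 10 genes (log2 difference -0.23, SE 0.095, limma, unadjusted p = 0.0638, adjusted p = 0.410). In the annotation, 263 exonic bases of *Nr1d1* (8.5%) lie opposite exons of *Thra*, and the strand setting of the authors' counting is not given in the sources used here. *Thra* had 20.4 FPKM in Cont1, 20.02 in Cont2, 17.4 in 7KC1 and 16.0 in 7KC2. Its part in the values of *Nr1d1* was not tested.

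*Dbp* and *Tef*, the PAR bZIP factors that act on D-boxes, were both high in Cont1, and *Dbp* had the widest spread of the 10 genes. *Dbp* (ENSMUSG00000059824.12, chromosome 7 from 45705088 to 45710203) had 11.8 FPKM in Cont1 and 5.13 in Cont2, against 6.35 in 7KC1 and 6.27 in 7KC2. The Cont-IMQ libraries differed 2.30-fold and the 7KC-IMQ libraries 1.01-fold, and the log2 difference between groups was -0.28 (SE 0.361, limma, adjusted p = 0.780). The 4 values rest on an estimated 172, 74, 99 and 90 reads of the shortest coding transcript, for which the counting error alone is 7.6% to 11.6%. Exons of *Sphk2* lie opposite 539 exonic bases of *Dbp* (18.0%). *Sphk2* had 26.0 FPKM in Cont1, 22.9 in Cont2, 21.4 in 7KC1 and 22.6 in 7KC2. Its part in the values of *Dbp* was not tested. *Tef* (ENSMUSG00000022389.15, chromosome 15 from 81802421 to 81826863) had 30.4 FPKM in Cont1 and 20.8 in Cont2, against 21.2 in 7KC1 and 21.4 in 7KC2. As with *Dbp*, 3 libraries were close together and Cont1 was higher (log2 difference between groups -0.23, SE 0.187, limma, adjusted p = 0.639).

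**Figure D1:**
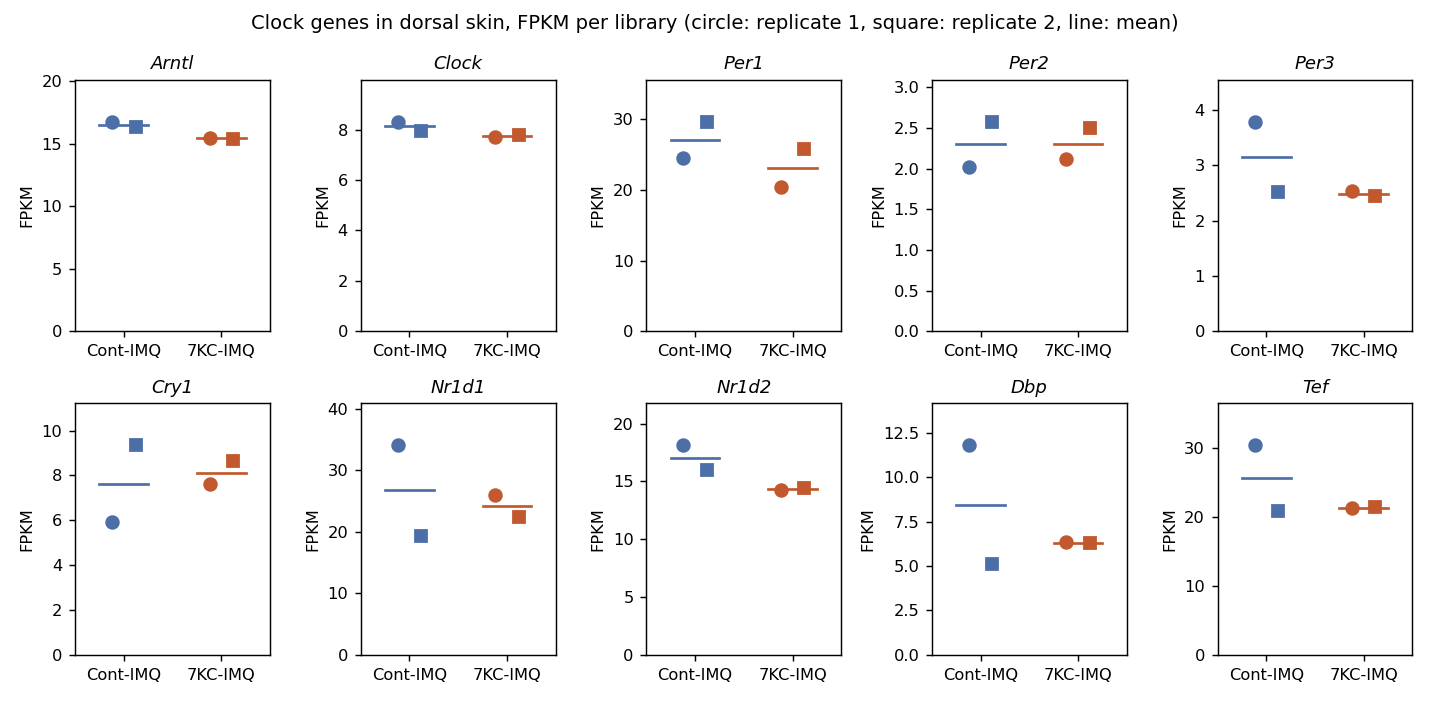
FPKM (vertical axis, from 0, with a separate scale for each gene) of the 10 clock genes in the Cont-IMQ and 7KC-IMQ libraries, with a circle for replicate 1, a square for replicate 2 and a line for the group mean. The 7KC-IMQ libraries of *Dbp* (6.35 and 6.27) and *Tef* (21.2 and 21.4) coincide, while Cont1 stands above them at 11.8 and 30.4.

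By mean level over the 4 libraries, *Nr1d1* (25.5 FPKM), *Per1* (25.1) and *Tef* (23.4) were the highest, followed by *Arntl* (16.0), *Nr1d2* (15.7), *Clock* (7.93), *Cry1* (7.88), *Dbp* (7.39), *Per3* (2.82) and *Per2* (2.30). The libraries of *Nr1d1*, *Per1* and *Tef* overlapped in level, as did those of *Arntl* and *Nr1d2*, of *Clock*, *Cry1* and *Dbp*, and of *Per3* and *Per2*.

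None of the 10 clock genes passed the adjusted threshold by limma, which 0.00629% of all genes tested (1 gene) passed, and their adjusted p-values lay between 0.410 and 0.994. None was under an unadjusted p of 0.05 either, against 7.50% of all genes that passed that limit upwards and 5.47% downwards. The groups did not overlap in 3 of the 10, *Arntl*, *Clock* and *Nr1d2*, all lower in the 7KC-IMQ group, against 22.9% of all genes in that direction. None was higher without overlap, against 23.9% of all genes. The mean was lower in the 7KC-IMQ group for 8 of the 10, against 8157 of all 15896 genes tested. The median log2 difference was -0.16, against -0.01 over all genes tested. With 2 libraries on each side, the smallest p that an exact permutation test allows is 0.333.

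The direction for several of these genes rested on Cont1. Without Cont2, Cont1 alone stood for its group. The 6 largest log2 differences of the 10 genes were then those of *Dbp* (-0.81), *Tef* (-0.49), *Nr1d1* (-0.48), *Per3* (-0.46) and *Nr1d2* (-0.32), lower in the 7KC-IMQ group, and *Cry1* (0.40), higher. Without Cont1, *Nr1d1* (0.31), *Dbp* (0.25) and *Tef* (0.03) were higher and *Cry1* (-0.18) lower in the 7KC-IMQ group, all in the opposite direction. *Arntl*, *Clock*, *Per1*, *Per3* and *Nr1d2* were lower in the 7KC-IMQ group whichever library was left out, but the size varied. *Per3* was at -0.0123 without Cont1 and -0.46 without Cont2, and *Per1* at -0.0619 without 7KC1 and -0.38 without 7KC2. The differences of the others lay between -0.11 and -0.0746 for *Arntl*, -0.0941 and -0.0372 for *Clock*, and -0.32 and -0.145 for *Nr1d2*. Rescaling the libraries to the same FPKM sum, which shifts the median of all genes to -0.07, raised the number without overlap from 3 to 6. With quantile normalization the number was 2. The shares of all genes without overlap at these settings are not given here.

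**Figure D2:**
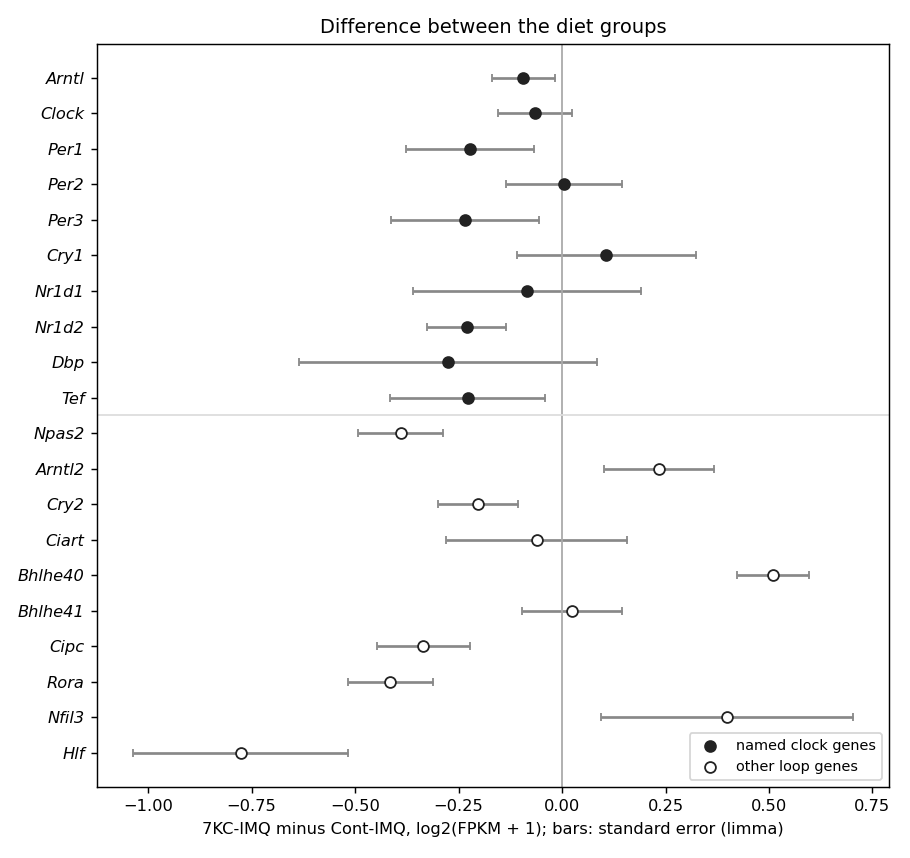
Difference between the groups (horizontal axis, 7KC-IMQ minus Cont-IMQ, log2(FPKM + 1)) with its standard error from limma as bars, for the 10 clock genes (filled points) and 10 other genes of the clock loops (open points). The 10 clock genes lie between -0.28 (*Dbp*) and 0.11 (*Cry1*), and the other loop genes between -0.78 (*Hlf*) and 0.51 (*Bhlhe40*).

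The libraries of a group differed more in Cont-IMQ than in 7KC-IMQ for most of these genes. The log2 gap between the Cont-IMQ libraries had a median size of 0.36 over the 10 genes, against 0.14 over all genes tested. Between the 7KC-IMQ libraries it was 0.03, against 0.11 over all genes. The wide Cont-IMQ gap was not particular to these genes. It was 0.42 in Cont-IMQ and 0.15 in 7KC-IMQ over 16 glucocorticoid response genes, and 0.22 and 0.08 over the 10 other loop genes. Over 15 clock outputs it was 0.21 and 0.10. It was smaller, at 0.12 and 0.06, over 16 genes of clock kinases and ubiquitin ligases. Over 10 immediate early genes the 7KC-IMQ gap was the wider, at 0.22 in Cont-IMQ and 0.55 in 7KC-IMQ. The Cont-IMQ gap was the wider of the 2 for 9 of the 10 clock genes, all but *Per1*, against 58.7% of all genes. Both 7KC-IMQ libraries lay between the Cont-IMQ libraries in 5 of the 10 (*Per2*, *Cry1*, *Nr1d1*, *Dbp* and *Tef*), against 17.0% of all genes. Cont1 was the highest of the 4 libraries in 7 of the 10, against 27.3% of all genes. In the other 3 (*Per1*, *Per2* and *Cry1*), Cont2 was the highest, against 27.5% of all genes. None of the 10 had its highest value in a 7KC-IMQ library, against 17.5% of all genes for 7KC1 and 27.8% for 7KC2. Of the 20 clock and other loop genes tested, 2 were highest in 7KC1 and 2 in 7KC2.

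Measured by the median absolute log2 difference over the 10 genes, Cont2 was closer to the 7KC-IMQ libraries than to the other library of its own group in these genes. The distance was 0.18 and 0.09 to 7KC1 and 7KC2 and 0.36 to Cont1. The distances of Cont1 to the 7KC-IMQ libraries were 0.32 and 0.39. Over all genes tested, Cont2 was 0.14 and 0.17 from the 7KC-IMQ libraries and 0.14 from Cont1. Over the 10 clock genes together with the 10 other loop genes described below, Cont2 was 0.26 from 7KC1, 0.19 from 7KC2 and 0.26 from Cont1, so it was then no closer to 7KC1 than to Cont1. These distances are descriptions and were not tested.

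**Figure D3:**
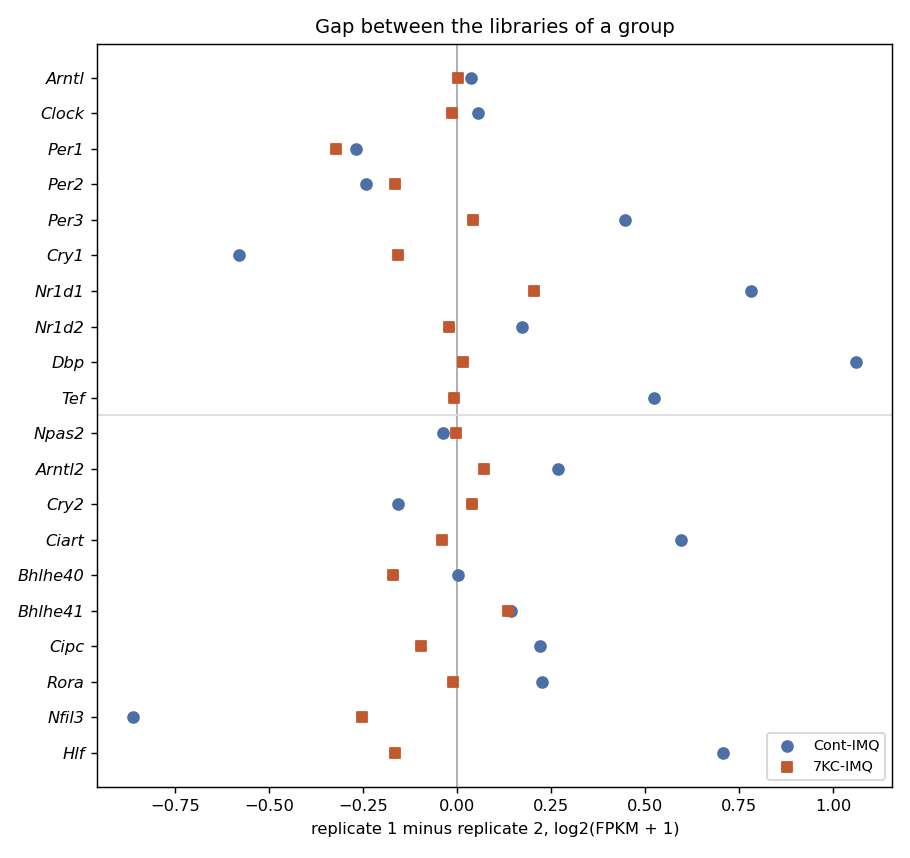
Gap between the libraries of a group (horizontal axis, replicate 1 minus replicate 2, log2(FPKM + 1)) for the 10 clock genes (above the line) and 10 other loop genes (below it), with circles for Cont-IMQ and squares for 7KC-IMQ. The Cont-IMQ gap of *Dbp* is 1.06 and that of *Cry1* is -0.58, while the 7KC-IMQ gap of *Dbp* is 0.02 and that of *Cry1* is -0.16.

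Other measures moved with the gap between the Cont-IMQ libraries. Besides the 9 growing hair follicle markers, all 5 melanocyte markers were lowest in Cont1 and highest in Cont2, with sums of 45.3 (Cont1), 148.6 (Cont2), 85.1 (7KC1) and 73.5 FPKM (7KC2). In the reverse order, 4 of 6 keratinocyte markers were highest in Cont1 and lowest in Cont2, with sums of 23890, 16000, 18490 and 20500 FPKM. The adipocyte sum was lowest in Cont1 and highest in Cont2 (1655, 2523, 2441 and 1901 FPKM), but only 2 of 7 adipocyte markers had this order. The fibroblast sum was highest in Cont1 and lowest in Cont2 (3406, 2446, 3178 and 2788 FPKM), but only 2 of 6 fibroblast markers had this order. The sums for sebaceous gland (371 to 550.8 FPKM), endothelium (31.8 to 42.8), skeletal muscle (7648 to 9330) and leukocytes (455.7 to 614.7, with 6 of 8 markers in the files) did not have Cont1 and Cont2 at the opposite ends. The red blood cell list (4 of 5 markers in the files) was at 27.0 and 25.6 FPKM in Cont1 and 7KC2 and at 6.79 and 6.74 in the other two. No marker was listed at 0. The part of these cell types in the spread of the clock genes was not tested, and in whole skin, fewer cells of a type and less RNA per cell cannot be told apart.

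The activators and their targets were also compared within each library. In each library, the mean log2(FPKM + 1) of *Arntl* and *Clock* was compared with that of 7 E-box and D-box targets. These were *Per1*, *Per2*, *Per3*, *Nr1d1*, *Nr1d2*, *Dbp* and *Tef*. *Cry1*, also an E-box gene, was left out because it peaks later. It had the opposite order in the Cont-IMQ group, with 5.93 FPKM in Cont1 and 9.34 in Cont2. The activators minus the targets gave -0.11 in Cont1, 0.20 in Cont2, and 0.16 and 0.13 in 7KC1 and 7KC2. Cont1 was thus the only library in which these 7 targets were on average above the activators. The difference between group means (0.10) was smaller than the SD of the Cont-IMQ libraries (0.216). That difference was -0.05 without Cont1 and 0.255 without Cont2. The activators had means of 3.69 and 3.64 in the Cont-IMQ libraries and 3.58 and 3.59 in the 7KC-IMQ libraries, and the targets had means of 3.79, 3.44, 3.42 and 3.45.

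Pairs of genes with opposite or different phase were then compared within each library, as log2 ratios of FPKM. These pairs were chosen after the values were seen. *Dbp* over *Arntl* was -0.51 in Cont1 and -1.67 in Cont2, against -1.28 and -1.30 in the 7KC-IMQ libraries. *Nr1d1* over *Cry1* was 2.52 and 1.05 in the Cont-IMQ libraries and 1.77 and 1.38 in the 7KC-IMQ libraries. *Per3* over *Per2* was 0.91 and -0.03 in the Cont-IMQ libraries and 0.26 and -0.03 in the 7KC-IMQ libraries. *Dbp* over *Nfil3*, the repressor that competes for the D-box, was -0.17 and -2.28 in the Cont-IMQ libraries and -1.81 and -2.09 in the 7KC-IMQ libraries. In all 4 ratios Cont1 was highest and Cont2 lowest or level with the lowest.

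**Figure D4:**
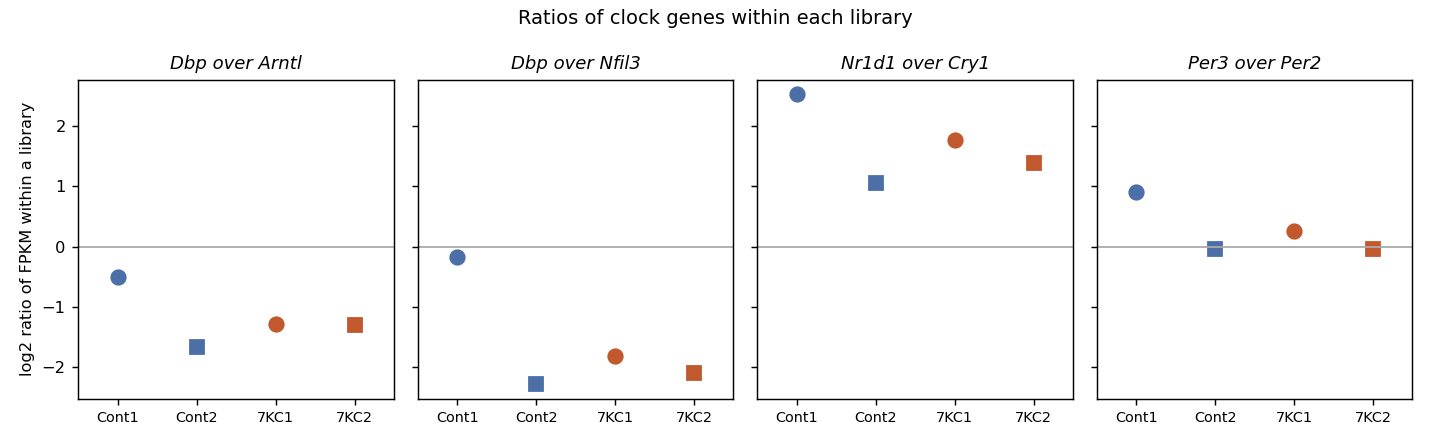
Log2 ratio of FPKM within each library (vertical axis) for *Dbp* over *Arntl*, *Dbp* over *Nfil3*, *Nr1d1* over *Cry1* and *Per3* over *Per2*, with a circle for replicate 1 and a square for replicate 2 of each group. Cont1 is the highest point in every panel, at -0.51, -0.17, 2.52 and 0.91.

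The wider clock loop was described with 11 further genes, of which *Rorb* was under the filter (0.057 to 0.206 FPKM). None of the 10 tested passed the adjusted threshold by limma (adjusted p 0.352 to 0.952), and at an unadjusted p under 0.05, 1 was above and 4 were below the Cont-IMQ level, beside 7.50% and 5.47% of all genes. The groups did not overlap in 2 that were higher and 5 that were lower, beside 23.9% and 22.9% of all genes. The median log2 difference was -0.13, against -0.01 over all genes. In several of them the difference between the groups exceeded the gap within either group.

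*Rora*, an activator that competes with NR1D1 and NR1D2 at the ROR element of *Arntl*, had lower values in the 7KC-IMQ group. It had 29.7 FPKM in Cont1, 25.2 in Cont2, 20.2 in 7KC1 and 20.4 in 7KC2 (log2 difference -0.42, SE 0.103, limma, unadjusted p = 0.0118, adjusted p = 0.356). The 7KC-IMQ libraries were nearly level and below both Cont-IMQ libraries, while *Arntl* itself differed by -0.09.

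The other activators went different ways. *Npas2*, which can take the place of *Clock*, had 1.60 FPKM in Cont1, 1.66 in Cont2, 1.01 in 7KC1 and 1.01 in 7KC2 (log2 difference -0.39, SE 0.102, limma, unadjusted p = 0.0145, adjusted p = 0.356). These values rest on an estimated 61 to 101 reads. *Arntl2*, the paralog of *Arntl*, had 4.98 FPKM in Cont1, 3.97 in Cont2, 5.57 in 7KC1 and 5.25 in 7KC2, higher without overlap (log2 difference 0.23, limma, adjusted p = 0.520). The *Arntl2* values rest on an estimated 91 to 137 reads of the shortest coding transcript, for which the counting error alone is 8.5% to 10.5%.

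Of the repressors, *Bhlhe40* (DEC1), which competes for E-boxes and is also induced by hypoxia and cytokines, had the largest difference towards the 7KC-IMQ group. It had 54.5 FPKM in Cont1, 54.4 in Cont2, 73.3 in 7KC1 and 82.7 in 7KC2 (log2 difference 0.51, SE 0.087, limma, unadjusted p = 0.00267, adjusted p = 0.352). Its paralog *Bhlhe41* did not show this, with 1.40 and 1.17 FPKM against 1.43 and 1.21 FPKM. The *Bhlhe41* values rest on an estimated 10 to 13 reads of the shortest coding transcript, or 105 to 138 of the longest. For the shortest, the counting error alone is 28.1% to 32.2%. *Cipc*, which binds CLOCK, had 15.1 FPKM in Cont1, 12.9 in Cont2, 10.5 in 7KC1 and 11.3 in 7KC2 (log2 difference -0.34, limma, unadjusted p = 0.0341, adjusted p = 0.365). *Cry2* was also lower without overlap, with 12.0 and 13.5 FPKM against 11.1 and 10.8 FPKM (log2 difference -0.20, limma, adjusted p = 0.459). *Ciart*, a repressor driven by E-boxes, had 6.02 FPKM in Cont1, 3.65 in Cont2, 4.40 in 7KC1 and 4.55 in 7KC2, and thus stood in the same order as *Dbp* in the Cont-IMQ group.

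The D-box factors outside the 10 genes followed the Cont-IMQ gap as well. *Hlf*, the third PAR bZIP gene, had 4.24 FPKM in Cont1, 2.22 in Cont2, 1.26 in 7KC1 and 1.54 in 7KC2. Its groups did not overlap, but the log2 difference of -0.78 (SE 0.260, limma, unadjusted p = 0.0337, adjusted p = 0.365) was close to the gap of 0.71 between the Cont-IMQ libraries. *Nfil3* had 13.3 FPKM in Cont1, 24.9 in Cont2, 22.2 in 7KC1 and 26.7 in 7KC2, lowest where *Dbp*, *Tef* and *Hlf* were highest (log2 difference 0.40, limma, adjusted p = 0.617). Among the 10 loop genes tested, the Cont-IMQ gap was the wider in 9. Without 7KC1 or without 7KC2, 1 loop gene was higher and 0 lower at an unadjusted p under 0.05 by limma, against 1 and 4 with all libraries. Over all genes the shares higher and lower were then 4.29% and 2.9% without 7KC1, and 2.13% and 1.76% without 7KC2. Without Cont1 the loop genes numbered 2 and 4, in each case of 11 tested, beside 7.52% and 7.23% of all genes. Without Cont2 they numbered 2 and 5 of 10, beside 7.3% and 6.84%. The median was -0.24 without Cont2 and -0.07 without 7KC1.

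**Figure D5:**
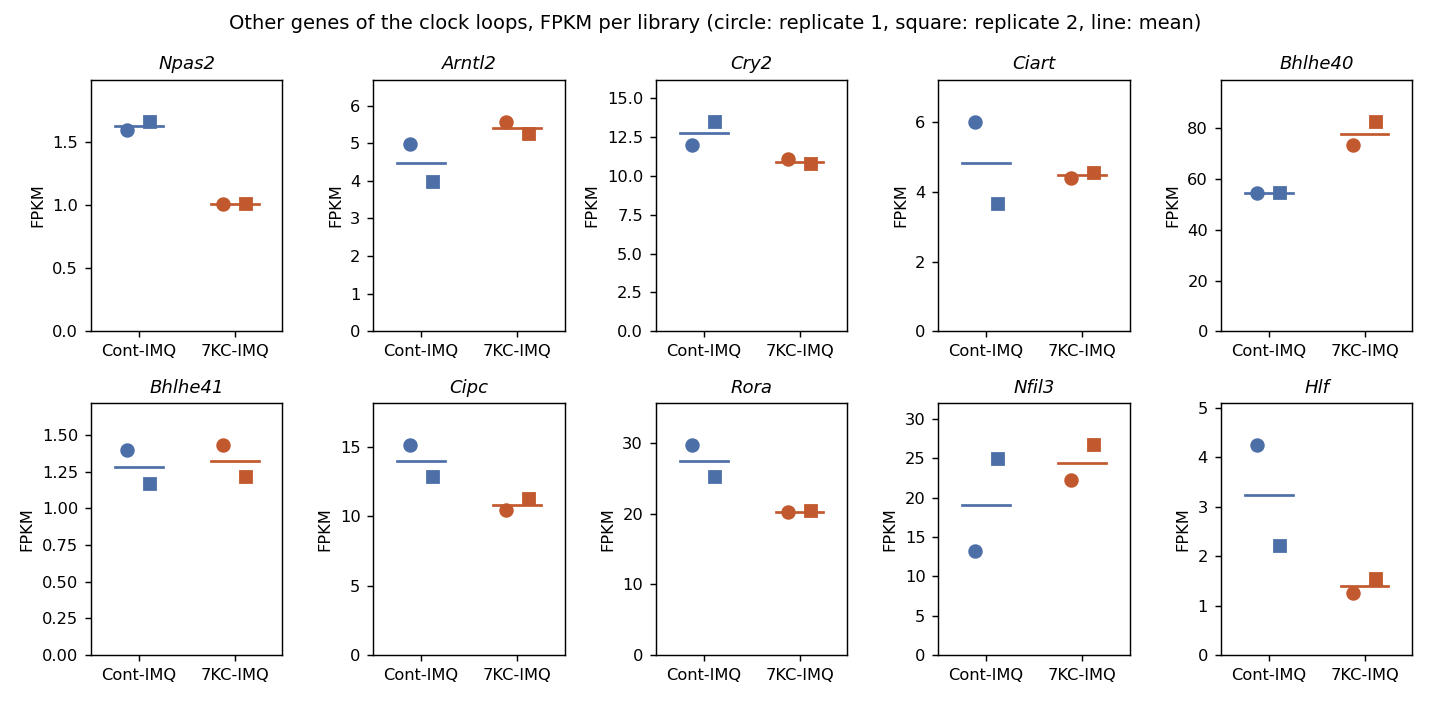
FPKM (vertical axis, from 0, with a separate scale for each gene) of 10 other genes of the clock loops in the Cont-IMQ and 7KC-IMQ libraries, with a circle for replicate 1, a square for replicate 2 and a line for the group mean. *Bhlhe40* lies at 54.4 to 54.5 against 73.3 to 82.7, *Rora* at 25.2 to 29.7 against 20.2 to 20.4, and *Nfil3* is lowest in Cont1 at 13.3.

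Turnover of the clock proteins is set by kinases and ubiquitin ligases, and 16 of these were tested. None passed the adjusted threshold, and none was higher and 1 lower at an unadjusted p under 0.05, beside 7.50% and 5.47% of all genes. The median log2 difference was -0.06. The lower gene was *Prkaa1*, the AMPK subunit that phosphorylates CRY, with 9.63 FPKM in Cont1, 9.54 in Cont2, 8.20 in 7KC1 and 7.76 in 7KC2 (log2 difference -0.24, limma, unadjusted p = 0.0486, adjusted p = 0.381). The groups did not overlap in 2 that were higher, *Csnk1a1* (0.15) and *Gsk3a* (0.05), and in 7 that were lower, among them the ligase gene *Fbxw7* (-0.17) and the kinase gene *Gsk3b* (-0.14). The shares of all genes without overlap were 23.9% and 22.9%.

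Outputs of the clock were split in direction. Of 15 genes, 4 were higher and 2 lower at an unadjusted p under 0.05, beside 7.50% and 5.47% of all genes, none passed the adjusted threshold by limma, and the median log2 difference was 0.11. The groups did not overlap in 8 that were higher and 5 that were lower, beside 23.9% and 22.9% of all genes. The largest differences without overlap were *Noct* (listed as *Ccrn4l*, 0.71), the circadian phosphatase nocturnin, *Alas1* (0.39), the first enzyme of heme synthesis, and *Por* (0.28), the electron donor of cytochrome P450 enzymes. In the other direction they were *Fmo2* (-0.65), a monooxygenase, *Gpcpd1* (-0.40), a glycerophosphocholine phosphodiesterase, and *Ppara* (-0.28), a receptor for fatty acids. *Ccrn4l* had 11.9 FPKM in Cont1, 14.9 in Cont2, 18.7 in 7KC1 and 26.9 in 7KC2. *Fmo2* had 12.7 and 15.4 FPKM against 9.40 and 7.85 FPKM.

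*Per1* also answers to glucocorticoids and to the signals that induce immediate early genes, and both groups of genes were set beside it. *Per1* was higher in replicate 2 than in replicate 1 of both groups, an order held by 25.4% of all genes and by 3 of the 10 clock genes (*Per1*, *Per2* and *Cry1*). All 10 immediate early genes and 12 of 16 glucocorticoid response genes tested (of 17 listed, *Tat* being under the filter) had this order. *Fos* had 496.2 FPKM in Cont1, 546.3 in Cont2, 97.4 in 7KC1 and 277.0 in 7KC2. It was the only immediate early gene at an unadjusted p under 0.05 (log2 difference -1.66, SE 0.501, limma, unadjusted p = 0.0241, adjusted p = 0.360), beside 5.47% of all genes lower at that limit. *Fos*, *Egr1* (-0.37) and *Ier2* (-0.34) were lower without overlap, beside 22.9% of all genes. The median of the 10 was -0.28. Without 7KC1 it was -0.09 and without 7KC2 -0.60. The part of these signals in the values of *Per1* was not tested.

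Glucocorticoid response genes had no common direction. The median log2 difference of the 16 was 0.05, with 3 higher and 4 lower at an unadjusted p under 0.05, beside 7.50% and 5.47% of all genes, and none past the adjusted threshold. The median was -0.22 without Cont1, 0.37 without Cont2 and -0.0114 after rescaling to the same FPKM sum. Without overlap, *Lcn2* (1.43), an antimicrobial protein of inflamed epithelium, and the metallothioneins *Mt2* (0.64) and *Mt1* (0.63) were higher, and *Dusp1* (-0.74), *Pdk4* (-0.45) and *Sgk1* (-0.42) lower in the 7KC-IMQ group. *Fkbp5* had 27.5 FPKM in Cont1, 53.8 in Cont2, 46.2 in 7KC1 and 53.4 in 7KC2, and *Zbtb16* had 5.21 and 12.3 against 11.04 and 9.55 FPKM. In both of these Cont1 was the lowest library, as in *Cry1* and *Nfil3*. *Fkbp5* and *Zbtb16* overlapped between the groups and were singled out after their values were seen.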

How the data were processed

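Dorsal skin was measured in 4 libraries, 2 Cont-IMQ and 2 7KC-IMQ, grouped by the sample labels. The authors prepared stranded mRNA libraries, mapped the reads to mm10 and deposited FPKM per gene symbol, and the submitters' processing notes name TopHat2 2.1.1, Bowtie2 2.2.8, SAMtools 0.1.18 and Cuffdiff 2.2.1. FPKM values already hold the authors' scaling and are not counts, so no count model was used. From them log2(FPKM + 1) was computed, genes averaging under 0.1 FPKM were dropped, and limma 3.58.1 (R 4.3.3; lmFit, eBayes with a variance trend) compared the groups, with Benjamini-Hochberg adjustment. The fit was tested on simulated data.

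The 10 clock genes and all lists were chosen with earlier results of these data known. Named were all 10 clock genes, every other loop gene, and of each further list the 3 largest differences in each direction among genes averaging 1 FPKM or more without overlap. In the lists of loop genes and of kinases and ligases, 1 gene each is not reported here. Genes or ratios named outside this rule were singled out after their values were seen.

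Depth was estimated as the number of reads that brings low values of genes with 1 transcript closest to whole reads. Between 75.5% and 78.7% of these lay within 0.1 of a whole number at the depth so chosen. The 20% given by chance holds for a depth fixed in advance. As the depth was picked on the same values, the share is no test of it. Estimated reads cover counting error only. Loci and exon overlap came from GENCODE M21, in which 23310 symbols were found, and promoters from RefSeq.

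The alternatives were leaving out each library, the replicate number as a block, no variance trend, another scaling (quantiles, median ratio or the same FPKM sum), a pseudocount of 0.1, and a filter at 1 FPKM or none.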

Additional observations from a re-analysis of the deposited data

How the results depend on the processing

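None of the 10 clock genes passed the adjusted threshold under any of the 12 alternatives, and the smallest adjusted p over the 20 clock and loop genes was 0.296. With all libraries kept, the number at an unadjusted p under 0.05 by limma was 1 with the same FPKM sum and 1 with quantile normalization. It was not the same with every library left out, and for those fits only the log2 differences of the clock genes are given. In the main fit 7.50% of all genes were higher and 5.47% lower at this limit, and the shares at those 2 settings are not given here. The number without overlap was 6 with the same FPKM sum and 2 with quantile normalization. It was 4 to 9 with a library left out, where fewer libraries make separation easier. In the main fit 23.9% of all genes were higher and 22.9% lower without overlap, and the shares under the alternatives are not given here. Over all genes, 2 passed with a pseudocount of 0.1 and 1 to 11 with a library left out. The median difference of the clock genes was -0.23 with the same FPKM sum and -0.215 to -0.0559 with a library left out. With the same FPKM sum the medians of the kinase and output lists were -0.14 and 0.0528, and that of the glucocorticoid list turned to -0.0114. A filter at 1 FPKM gave -0.0303 for the kinase list. The median of the other loop genes was -0.0800 with no filter and -0.0812 with median ratio scaling. With a library left out, medians were -0.241 to -0.0686 for the other loop genes, 0.0540 to 0.111 for outputs, -0.22 to 0.37 for glucocorticoid response genes and -0.603 to -0.0855 for immediate early genes. The activator minus target difference was -0.0508 to 0.255. The cause was not tested.

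The sign of 8 genes changed with a library left out, with ranges of -0.12 to 0.13 for *Per2*, -0.18 to 0.40 for *Cry1*, -0.48 to 0.31 for *Nr1d1*, -0.81 to 0.25 for *Dbp*, -0.49 to 0.0341 for *Tef*, -0.36 to 0.24 for *Ciart*, -0.0479 to 0.0964 for *Bhlhe41* and -0.0313 to 0.829 for *Nfil3*. *Per2* was also at -0.0022 with median ratio scaling and -0.0533 with the same FPKM sum, where *Bhlhe41* was at -0.0204. With 1 library left in a group, that library is assumed to vary like the others.

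The labels number the replicates alike in both groups but do not say that a number marks a shared batch, and the differences between replicates 1 and 2 correlated by 0.065 over genes. With the replicate block, 1 gene passed over all genes and 0 clock genes, the median of the clock genes was -0.16, and no call among the clock genes changed.

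Among the genes described, *Bhlhe41*, *Npas2*, *Ciart*, *Dbp* and *Arntl2* have few estimated reads, and each group has 2 libraries.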
